A study of Mus musculus with 80 samples.

Results

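The imprinted growth genes H19, Cdkn1c, Nnat and Plagl1 were followed in mouse skeletal muscle from the weeks around weaning to old age. They were taken as every spotted clone that carries 1 of these 4 symbols in the platform annotation, whatever its values, which gave 10 of the 16896 clones measured. H19 had 7 clones and Cdkn1c, Nnat and Plagl1 had 1 each. The tissue came from 40 C57BL/6 mice, 20 female and 20 male, all fed regular chow without restriction, with no genetic change or drug. There were 5 mice of 17-21 d (3 female, 2 male), 5 of 33-44 d (2 female, 3 male), and 10 each (5 of each sex) of 169-194 d, 476-499 d and 704-743 d. Total RNA of each mouse was copied into radioactive cDNA and hybridised to 2 filters of cDNA clones, called A and B here, of 8448 clones each. A value is the authors' score of a clone on an array, in standard deviations of that array (array SD). Its log base is not known here, so differences are given in array SD and never as folds. Where a percentile is given, it is a clone's place on its filter by mean score, which does not rank the amounts of 2 RNAs.

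Imprinted genes are expressed from the copy inherited from 1 parent, and many of them set the pace of growth before and shortly after birth. H19 is a long non-coding RNA, abundant in fetal muscle, whose gene neighbours that of the growth factor Igf2 and which is the host transcript of the microRNA miR-675. Plagl1 (Zac1) encodes a zinc finger transcription factor that acts on other imprinted genes, Cdkn1c encodes p57Kip2, an inhibitor of cyclin-dependent kinases needed when muscle precursors leave the cell cycle, and Nnat encodes neuronatin, a small membrane protein of the endoplasmic reticulum linked to calcium handling.

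In the mouse assembly GRCm38.p6, H19 lies at chr7:142575530-142578146 and Cdkn1c further along the same chromosome at chr7:143458339-143461059. Nnat lies at chr2:157560078-157562525 and Plagl1 at chr10:13090832-13131694. The miR-675 hairpin, chr7:142577064-142577147 on the minus strand, falls inside the H19 interval. Its mature products are shown because they are the stretches of the H19 transcript with a known product of their own. RefSeq gives them as follows, 5′ to 3′, with the seed (bases 2 to 8) in capitals.
miR-675-5p: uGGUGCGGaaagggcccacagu
miR-675-3p: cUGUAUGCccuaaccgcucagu
The filters carry cDNA clones and not these short RNAs, and which parts of H19 the 7 clones hold is not known here.

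The clones of H19 did not give 1 picture. Clones 15040 and 15084 fell between 17-21 d and 33-44 d and stayed low to 704-743 d, and 1 clone of H19 rose slightly. The other 4 did not pass the test on the deposited scores in any comparison of ages, although 3 of them passed between 17-21 d and 169-194 d under other settings. Cdkn1c and Plagl1 fell and Nnat rose between 17-21 d and 169-194 d, at an age when a large share of all clones on the filters also changed. After 33-44 d no clone of these genes passed the test between successive ages.

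H19 clone 15040 on filter B scored 0.52, 0.56, 0.43, 0.33 and 0.35 in the mice of 17-21 d. In the mice of 33-44 d it scored 0.07, 0.06, 0.19, -0.12 and 0.20, and in those of 169-194 d between -0.14 and 0.12 with a median of -0.015. All 5 of the youngest mice were above every mouse of the next 2 classes. The fitted difference, adjusted for sex, was -0.354 ± 0.0619 array SD (SE) at 33-44 d (limma, Benjamini-Hochberg adjusted p = 0.0112) and -0.455 ± 0.0535 at 169-194 d (adjusted p = 5.96e-07), both against 17-21 d. At 476-499 d the clone ranged from -0.19 to 0.19 and at 704-743 d from -0.16 to 0.08. The mice of 33-44 d, at a mean of 0.08, overlapped each later class (means of -0.019, -0.03 and -0.028), although those at 0.19 and 0.20 were above every mouse of 169-194 d.

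H19 clone 15084, also on filter B, scored 0.41, 0.56, 0.43, 0.44 and 0.21 at 17-21 d. At 33-44 d it scored 0.09, 0.15, 0.15, -0.01 and 0.22, and at 169-194 d between -0.03 and 0.17 with a median of 0.05. Of the youngest mice, a male of 17 d at 0.21 overlapped the class of 33-44 d, and none overlapped that of 169-194 d. The fitted difference was -0.285 ± 0.0553 array SD at 33-44 d (limma, adjusted p = 0.0321) and -0.351 ± 0.0477 at 169-194 d (adjusted p = 1.77e-05). The older classes stayed in that range, with medians of 0.05 at 476-499 d and 0.09 at 704-743 d. In bulk tissue, fewer cells of a type and less RNA per cell cannot be told apart.

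These 2 clones were among very few that passed the test over the first weeks. Over this step, 6 of the 16896 clones were called, all lower, which is 0.0355% of the clones, against 2 of the 10 clones described here. The other 4 were clones of Col1a2, which encodes a chain of type I collagen, of Col2a1, the collagen of cartilage, and of Clca3a1, and a clone without a symbol. Change before the adjustment was far wider. At an unadjusted p under 0.05 (limma) there were 3845 clones over this step, 22.8% of all, and 3 of the 10 described here. The step rested on few mice: without 1 of 17-21 d replicates 1, 2 or 3 or 33-44 d replicate 4, neither H19 clone was called (adjusted p from 0.0526 to 0.086 for clone 15040 and from 0.0698 to 0.222 for clone 15084), and without 17-21 d replicate 4 or 33-44 d replicate 1 or 2 only clone 15084 was lost (adjusted p = 0.0886, 0.141 and 0.0757). With a block for the position of a mouse in the list, clone 15040 stayed called over this step (adjusted p = 0.00899) and clone 15084 did not (0.0767), as also with median and MAD scaling (0.013 and 0.0649) or 10 groups of age by sex (0.0181 and 0.0761), and with only these classes in the fit neither was called (0.17 for both, limma). Both clones stayed called between 17-21 d and 169-194 d without any 1 mouse.

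**Figure D1:**
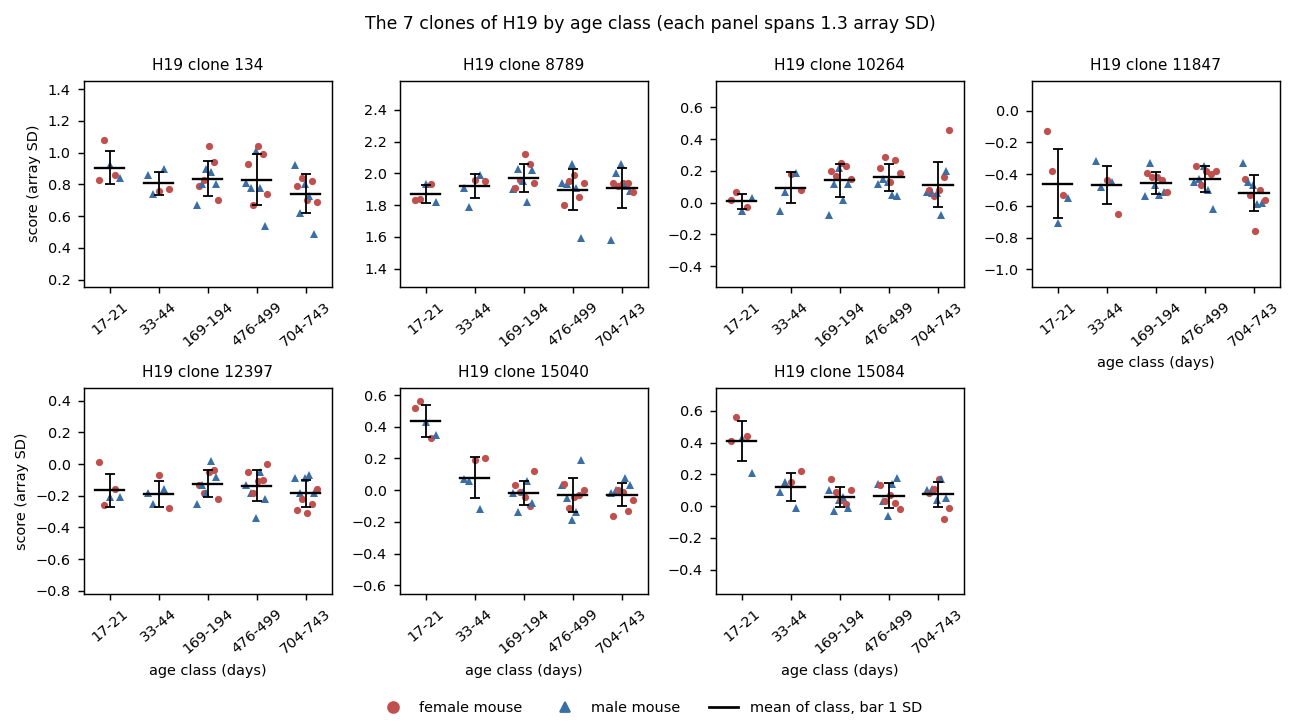
Scores of the 7 clones of H19 (vertical axis, array SD) by age class in days; each point is a mouse, horizontal lines are class means and bars 1 SD (n = 5, 5, 10, 10 and 10 mice), and every panel spans the same width of score. Clones 15040 and 15084 stand at means of 0.438 and 0.41 at 17-21 d and at -0.019 and 0.057 at 169-194 d, while the other 5 panels show classes that overlap.

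The third clone of H19 to pass the test went the other way. H19 clone 10264 scored 0.02, 0.07, -0.05, -0.03 and 0.03 at 17-21 d and -0.05, 0.07, 0.18, 0.19 and 0.08 at 33-44 d. It lay between -0.08 and 0.25 at 169-194 d, with a median of 0.16. The classes overlapped, and 9 of the 10 mice of 169-194 d were above the mean of 17-21 d. The fitted rise was 0.142 ± 0.0526 array SD (limma, adjusted p = 0.0323). It was lost without any 1 of 6 mice: 17-21 d replicates 1, 2, 3 and 4 gave adjusted p of 0.0611, 0.0568, 0.0557 and 0.0881, and 169-194 d replicates 5 and 6 gave 0.0605 and 0.0503.

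For the remaining 4 clones of H19 the scores of the age classes overlapped throughout. Clone 134, the 1 clone of H19 on filter A, had medians of 0.86, 0.77, 0.815, 0.795 and 0.76 from the youngest class to the oldest, and its difference between 17-21 d and 169-194 d was -0.0664 ± 0.0684 (adjusted p = 0.431, limma). Clone 8789, in the 96.8th percentile of its filter by mean score, had medians of 1.84, 1.95, 1.955, 1.935 and 1.93, with a difference of 0.104 ± 0.0591 (adjusted p = 0.145). Clone 11847 had medians of -0.53, -0.45, -0.455, -0.415 and -0.515 and a difference of 0.00694 ± 0.0638 (adjusted p = 0.938). Clone 12397 had medians of -0.21, -0.18, -0.13, -0.12 and -0.18 and a difference of 0.0424 ± 0.0522 (adjusted p = 0.515). Whether these clones differ from clones 15040 and 15084 in their change with age was not tested. How near clone 8789 was to saturation cannot be read from the scores. Its rise passed with median and MAD scaling (0.231, adjusted p = 0.0347), with array weights (0.102, adjusted p = 0.0316) and in a permutation test of this clone alone (0.101, unadjusted p = 0.042). Clone 12397 passed as a rise with a Col1a2 clone in the model (0.318, adjusted p = 0.021, limma).

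The clones of H19 were also compared mouse by mouse, with the mean of each age class and sex removed. Over the 40 mice, clones 15040 and 15084 varied together (Pearson r = 0.663, Spearman rho = 0.633; permutation p adjusted over the 21 pairs 0.00021 and 0.00126). Leaving out the 2 mice farthest from the median gave r = 0.596, and over the 35 mice of 33-44 d and older, with no class removed, it was 0.708 (rho = 0.70, adjusted permutation p = 0.00021 for each, and r = 0.651 without the 2 farthest). Scores were also correlated within the 5 blocks of 8 mice that follow the order of the mouse list. With no class removed, those of this pair correlated at 0.716 to 0.996. A block holds mice of several age classes, so change with age enters these values.

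Other pairs varied together less closely. Clones 134 and 11847, on different filters, had residual r = 0.36 and rho = 0.421 (adjusted permutation p = 0.0914 and 0.0384; r = 0.267 without the 2 farthest mice). Over the mice of 33-44 d and older, with no class removed, r was 0.572 and rho 0.603 (adjusted permutation p = 0.00241 and 0.00126; r = 0.496 without the 2 farthest). Within the blocks the scores of this pair, with no class removed, correlated at 0.365 to 0.72. Clones 11847 and 12397, both on filter B, had residual r = 0.371 and rho = 0.269 (adjusted permutation p = 0.0914 and 0.265; r = 0.176 without the 2 farthest mice). Many pairs had a residual r below 0, and for 2 of them the negative correlation passed the test. Clone 15084 varied against clone 10264 (residual r = -0.49, rho = -0.513, adjusted permutation p = 0.0112 and 0.00987, and r = -0.458 without the 2 farthest mice). The scores of this pair, with no class removed, correlated at -0.807 to 0.000612 within blocks. Clone 15040 varied against clone 8789 (residual r = -0.483, rho = -0.436, adjusted permutation p = 0.0112 and 0.0381, and r = -0.404 without the 2 farthest mice). Within blocks the scores of these 2 clones, with no class removed, correlated at -0.627 to -0.0856. The median residual r over all 21 pairs was -0.00677, and 10 of the 21 were above 0. For comparison, pairs of clones of any 1 gene on filter B had a median residual r of 0.106 over 842 pairs, and all pairs of clones on that filter one of -0.0103. Clones 15040 and 15084 are 44 apart in clone number. Pairs of filter B clones at that distance, whatever their gene, had a median residual r of 0.475, so 0.663 for this pair is to be read against that value.

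**Figure D2:**
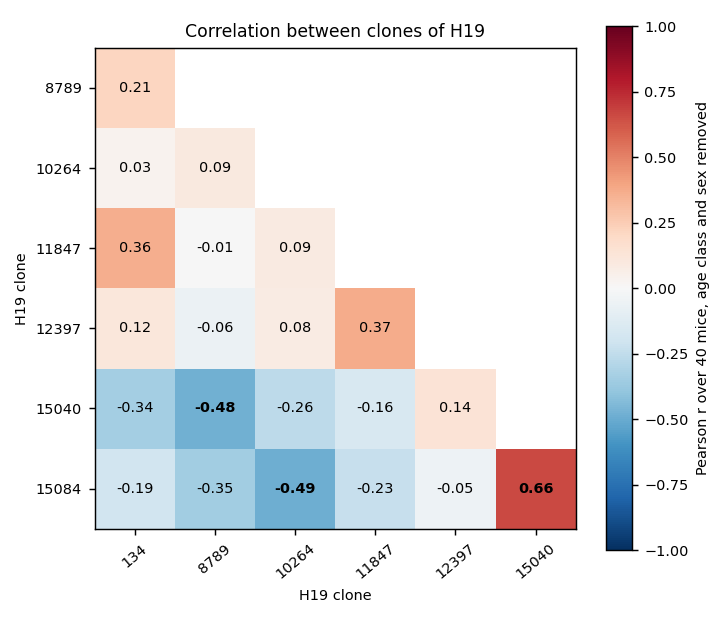
Pearson correlation over 40 mice between each pair of the 7 clones of H19 after the mean of each age class and sex was removed; colour and number give r, and bold marks an adjusted permutation p under 0.05. Clones 15040 and 15084 correlate at 0.66, and the other 20 pairs lie between -0.49 and 0.37.

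The clone numbers placed clones 15040 and 15084 side by side. On both filters the residual correlation between clones was highest at a distance of 22 in clone number (median r = 0.544 on filter A and 0.55 on filter B) and next at 44 (0.484 and 0.475), so clones 22 numbers apart were treated as neighbours in a column of the printed filter. The layout is thus inferred. In it, H19 clones 15040 and 15084 lie in 1 column with 1 unnamed clone, 15062, between them. Clone 15018 of Igf1, which encodes insulin-like growth factor 1, lies just before them. By 169-194 d the column ran from -0.328 at Igf1 through -0.455 at H19, -0.421 at the unnamed clone and -0.351 at H19 to -0.0186 at Gm10512 (limma, adjusted p = 0.00587, 5.96e-07, 0.00717, 1.77e-05 and 0.728).

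A stronger drop lay 2 columns away. Clone 15060 of Col1a2 fell from a median of 0.61 at 17-21 d to 0.09 at 33-44 d and -0.28 at 169-194 d, a difference of -0.906 (limma, adjusted p = 1.03e-09), and the clone of Clca3a1 2 rows above it and an unnamed clone 1 row below it fell by 0.424 and by 0.686. Of the 6 clones called between 17-21 d and 33-44 d, 5 are in these 2 columns within 4 rows, the exception being Col2a1 on filter A. A second clone of Col1a2, number 9008, had medians of 1.06, 1.10 and 1.035 over the same classes (difference 0.0173, adjusted p = 0.811). With clone 15060 of Col1a2 in the model as a covariate, H19 clones 15040 and 15084 still differed between 17-21 d and 169-194 d, by -0.431 (adjusted p = 0.0125) and -0.417 (adjusted p = 0.00977). With the same covariate neither was called between 17-21 d and 33-44 d (-0.339, adjusted p = 0.0722, and -0.326, adjusted p = 0.0586), and in the test of any difference among the 5 age classes none of the 10 clones passed, against 3 without it (limma). Mouse by mouse within a class and sex, the Col1a2 clone correlated with clones 15040 and 15084 at 0.0409 and -0.132, and the Igf1 clone with them at 0.648 and 0.613, given here as a description without a test. Whether signal of 1 spot reaches the next was not tested.

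**Figure D3:**
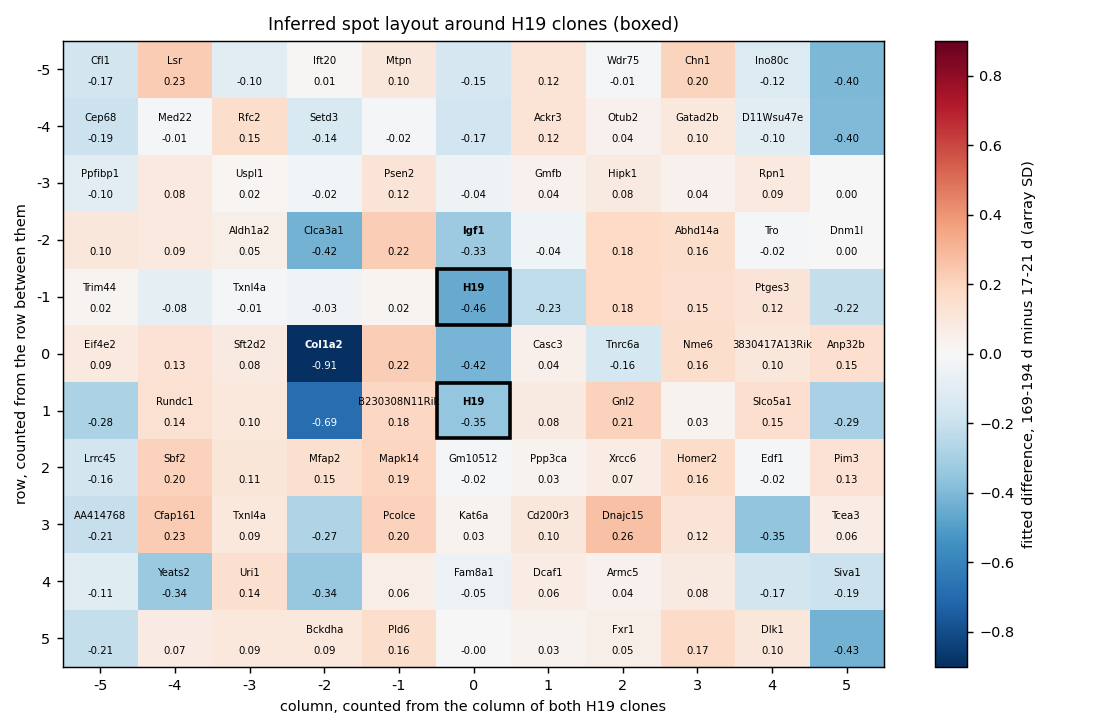
Fitted difference between 169-194 d and 17-21 d (colour and number, array SD) for the 121 clones within 5 rows and 5 columns of the spot between H19 clones 15040 and 15084, in the layout inferred from clone numbers; gene symbols are given where a clone has one. The boxed H19 spots at -0.46 and -0.35 share a column with Igf1 at -0.33, and Col1a2 at -0.91 lies 2 columns to the left.

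A reading against the neighbouring spots changed which clones of H19 passed. From each clone the mean of its 4 same-column neighbours on the same array was subtracted, leaving out clones of the same gene, and the fit was repeated over all clones. Between 17-21 d and 169-194 d, 4 of the 7 clones of H19 were then called lower: 15040 by -0.190 ± 0.0445 (adjusted p = 0.00645), 15084 by -0.214 ± 0.0326 (adjusted p = 0.00023), 134 by -0.249 ± 0.0454 (adjusted p = 0.00169) and 12397 by -0.143 ± 0.0372 (adjusted p = 0.00942, limma for each). Of all clones, 27.8% were called in this reading and 14.7% were called lower.

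The clone of H19 on filter A, 134, showed this most plainly. Its score less that of its neighbours was 0.85 to 0.998 at 17-21 d and 0.565 to 0.738 at 169-194 d, so that these classes no longer overlapped. The share of all clones with classes apart in this reading was not counted. The score of clone 134 itself had moved by -0.0664 while its 4 neighbours had moved by 0.183 on average. They ranged from -0.0972 to 0.448, and only the highest, Dok4, was called (limma, adjusted p = 0.0233). For clone 12397 its own change and the mean of its neighbours were 0.0424 and 0.185, and its classes still overlapped. Clones 8789, 11847 and 10264 did not pass, at -0.0745, -0.0357 and 0.0293, and the rise of clone 10264 was therefore not called in this reading (adjusted p = 0.692). Over the first step, 33-44 d against 17-21 d, no clone of H19 passed after subtraction (0.0237% of all clones did): clone 15084 was at -0.182 (adjusted p = 0.0833), 15040 at -0.156 (0.243), 134 at -0.185 (0.243) and 12397 at -0.171 (0.206, limma for each).

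**Figure D4:**
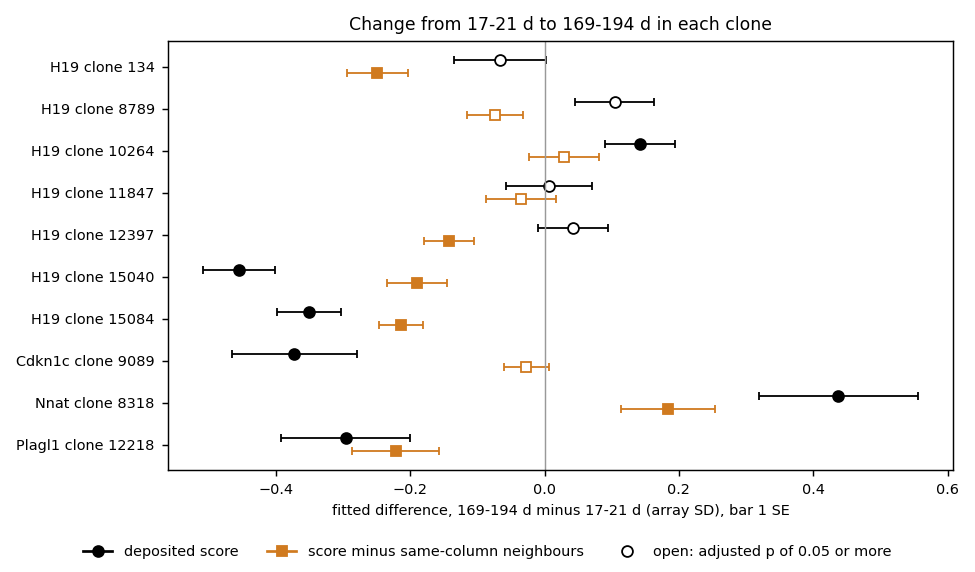
Fitted difference between 169-194 d and 17-21 d (array SD, bars 1 SE) for the 10 clones, from the deposited scores (circles) and after the same-column neighbours were subtracted (squares); filled symbols have an adjusted p under 0.05. Cdkn1c moves from -0.37 to -0.03 and H19 clone 134 from -0.07 to -0.25.

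Plagl1, the transcription factor, was lower at 169-194 d than at 17-21 d. Its clone 12218 scored 0.77, 0.90, 0.81, 0.77 and 0.92 at 17-21 d and 0.69, 0.85, 0.82, 0.51 and 0.64 at 33-44 d. It ranged from 0.09 to 0.95 at 169-194 d with a median of 0.57. The classes overlapped: the mice of 169-194 d covered both the lowest and the highest of these scores. The difference between 17-21 d and 169-194 d was -0.296 ± 0.096 array SD (limma, adjusted p = 0.0177), with 8 of 10 mice below the mean of 17-21 d, and without 17-21 d replicate 2 it was not called (-0.265, adjusted p = 0.0582). At 476-499 d the clone ranged from 0.33 to 0.93 with a median of 0.45, and at 704-743 d from 0.51 to 0.87 with a median of 0.725. The oldest mice had a mean of 0.736, near that of 33-44 d at 0.702, and were 0.183 ± 0.0782 above those of 169-194 d, which did not pass the test (unadjusted p = 0.0245, adjusted p = 0.722). Of its 4 same-column neighbours, Ptpn13 and Tmem167 varied closely with it (residual r = 0.933 and 0.926). They moved by -0.246 and -0.169 and were both called (limma, adjusted p = 0.0207 and 0.0277). The other 2, unnamed clones with residual r of 0.249 and 0.139, moved by 0.0149 and 0.102 and were not called. The mean of the 4 was thus only -0.0745. After it was subtracted the drop of Plagl1 to 169-194 d was -0.222 ± 0.065 (adjusted p = 0.0148).

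Cdkn1c, the cell cycle inhibitor, fell together with every neighbour of its spot. Its clone 9089 scored 0.78, 1.02, 0.92, 0.95 and 0.92 at 17-21 d and 0.66, 0.71, 0.61, 0.53 and 0.80 at 33-44 d. It ranged from 0.32 to 0.77 at 169-194 d with a median of 0.54, and no mouse of that class reached the lowest of 17-21 d. The difference was -0.373 ± 0.0933 array SD (limma, adjusted p = 0.00788), and at 33-44 d it was -0.258 ± 0.108, which did not pass (adjusted p = 0.191). The 4 same-column neighbours, among them clones of Tulp3 and Xbp1, moved by -0.382 to -0.307 and were all called. Their residual correlations with Cdkn1c over the 40 mice were 0.906 to 0.929, against a median of 0.55 for clones at a distance of 22 on that filter. After subtraction the difference for Cdkn1c was -0.0275 ± 0.0337 (adjusted p = 0.548). The later classes had medians of 0.515 and 0.585, and a male of 476-499 d stood alone at 1.11.

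Nnat rose over the same interval. Its clone 8318 on filter A scored -0.24, -0.35, -0.25, -0.12 and -0.20 at 17-21 d and 0.02, -0.17, -0.19, 0.38 and 0.07 at 33-44 d. It ranged from -0.07 to 0.53 at 169-194 d with a median of 0.20, so that every mouse of that class was above every mouse of 17-21 d. The difference was 0.437 ± 0.118 array SD (limma, adjusted p = 0.00927). All 4 neighbours were higher too, by 0.129 to 0.334, and 3 were called. After subtraction the rise was 0.184 ± 0.0702 (adjusted p = 0.0469). The range was widest at 476-499 d, from -0.41 to 0.67, and at 704-743 d the median was 0.03. The difference of -0.183 ± 0.0964 from 169-194 d to 704-743 d did not pass (unadjusted p = 0.0652, adjusted p = 0.722, limma).

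**Figure D5:**
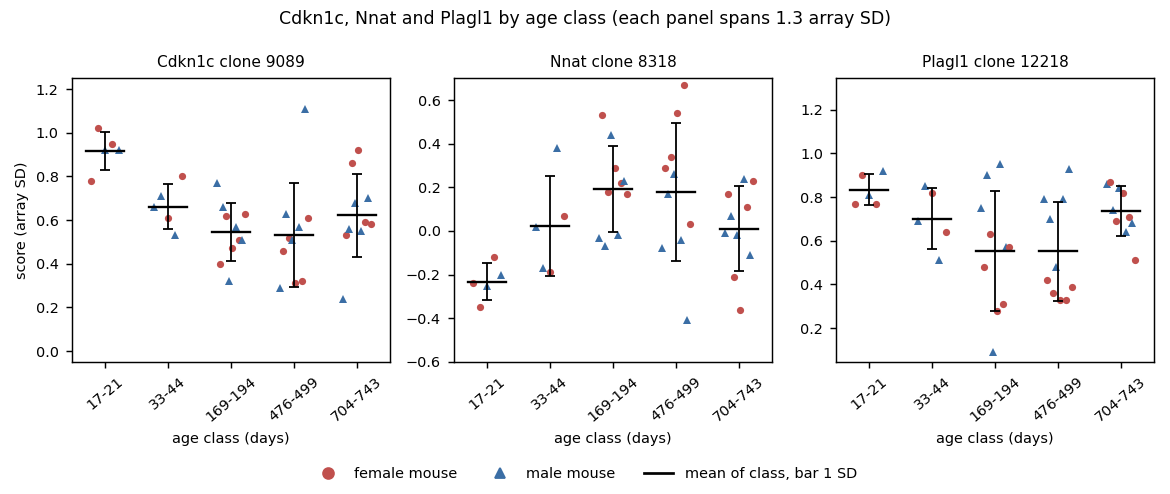
Scores of the clones of Cdkn1c, Nnat and Plagl1 (vertical axis, array SD) by age class in days; each point is a mouse, horizontal lines are class means and bars 1 SD (n = 5, 5, 10, 10 and 10 mice). From 17-21 d to 169-194 d the means go from 0.918 to 0.546 for Cdkn1c, from -0.232 to 0.194 for Nnat and from 0.834 to 0.553 for Plagl1.

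These calls stood on a wide background. Between 17-21 d and 169-194 d, 6 of the 10 clones were called, 4 lower and 2 higher, and so were 39.7% of all 16896 clones, 20.8% lower and 18.9% higher. By p, H19 clones 15040 and 15084 ranked 6 and 7. By size their falls were less unusual: 212 clones fell as far as or further than clone 15040, and 768 as far as or further than clone 15084. Ranges that did not overlap between these classes were found for 4 of the 10 (H19 clones 15040 and 15084, Cdkn1c and Nnat) and for 5.1% of all clones. From 17-21 d to 33-44 d only H19 clone 15040 had ranges apart, against 3.8% of all clones. A fit that adds the leading component of the other filter's scores as a covariate left 9 clones called in all, 0.0533% of those tested. H19 clones 15040 (-0.353, adjusted p = 0.000333) and 15084 (-0.263, adjusted p = 0.00754) were 2 of them, and Cdkn1c, Plagl1, Nnat and H19 clone 10264 were not, at -0.105, -0.0221, -0.00116 and 0.052 (adjusted p = 1 for each, limma). In the test of any difference among the 5 age classes, H19 clones 15040 (adjusted p = 1.23e-06) and 15084 (adjusted p = 0.000101) and Cdkn1c (adjusted p = 0.0438) passed, 3 of 10 against 8.22% of all clones. Nnat and Plagl1 did not, at 0.054 and 0.0653. When each of the 40 mice was left out in turn, H19 clones 15040 and 15084 passed this test in all 40 fits (limma, highest adjusted p = 5.27e-05 and 0.00436) and Cdkn1c in 21. The number of all clones that passed ran from 14 to 6138. It was 14 to 30 without any 1 mouse of 17-21 d, of which the H19 clones made 2 each time, and 6138 without 476-499 d replicate 9, the male in which Cdkn1c stood alone.

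Adult ageing and sex gave no calls in these genes. None of the 10 clones, and 0% of all clones, passed between 33-44 d and 169-194 d, between 169-194 d and 476-499 d, between 476-499 d and 704-743 d or between 169-194 d and 704-743 d (limma). The test can miss small changes, so the absence of a call does not show the absence of a change. At an unadjusted p under 0.05 the members counted 0, 0, 1 and 1 of 10, Plagl1 in both cases, and all clones 543, 130, 1392 and 859. The permutation test of Plagl1 alone gave p = 0.0376 between 476-499 d and 704-743 d and 0.0679 between 169-194 d and 704-743 d. Between females and males 0% of clones were called, with 2 of the 10 clones and 1497 of all clones at an unadjusted p under 0.05. H19 clone 10264 had a mean of 0.162 ± 0.112 in females and of 0.0695 ± 0.0891 in males, and Plagl1 of 0.58 ± 0.208 and 0.725 ± 0.201 (SD over 20 mice each). Whether the change from 17-21 d to 169-194 d differed between the sexes was tested for all clones as well, with 0% called. H19 clone 11847 was the 1 clone described here with an unadjusted p under 0.05 (0.045, adjusted p = 1), and only 2 males of 17-21 d enter that test.

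The clones whose scores ran most like these over the 40 mice were found over both filters, as a description without a test, among clones with 1 symbol and of another gene. Left out by that choice were each other for H19 clones 15040 and 15084 (r = 0.90) and, among the neighbouring spots, the unnamed clones 10308 for H19 clone 10264 (r = 0.87) and 9133 for Cdkn1c (r = 0.945). For H19 clone 15040 the named clones were Clca3a1 (r = 0.825), Col2a1 (r = 0.818) and Sparc (r = 0.793), Sparc encoding osteonectin, a matrix protein that binds collagen. For H19 clone 15084 they were Ccna2, which encodes cyclin A2 (r = 0.788), Fam131a (r = 0.761) and Letm1 (r = 0.736), and for clone 10264 they were 1700086L19Rik (r = 0.88), Eny2 (r = 0.856) and Dph5 (r = 0.848), all on filter A. The lists of these 3 clones of 1 gene have no gene in common. Col2a1 and Sparc are on filter A, so their likeness to clone 15040 spans separate hybridisations. Age class and sex were left in the scores for all these likenesses, so a shared change with age enters r. With both removed, clone 15040 and Clca3a1 correlated at 0.359. The Sparc clone found here was 6518. Another clone of Sparc, 14923, used for the gene lists, did not pass between 17-21 d and 169-194 d (-0.0507, adjusted p = 0.699, limma). Cdkn1c ran with Ptpa (r = 0.956), Zbtb8a (r = 0.954) and Btaf1 (r = 0.943), Nnat with Zfp644 (r = 0.96), Serp1 (r = 0.957) and Slc35b2 (r = 0.957), and Plagl1 with Ptpn13 (r = 0.953), Smarcd2 (r = 0.949) and Id2 (r = 0.941). All 9 are on the filter of the gene they resemble. Ptpa, Ptpn13, Smarcd2 and Id2 share its column.

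Other imprinted genes also moved in both directions. Of 25 further imprinted genes measured, 6 rose and 2 fell between 17-21 d and 169-194 d, with a median difference of 0.0848. Over all 7151 named genes, 1629 rose (22.8%) and 1211 fell (16.9%), with a median of 0.0442, the background of the lists that follow as well. Tspan32 (0.379), Pon3 (0.185), Sfmbt2 (0.258) and Trappc9 (0.235) had the smallest p among those that rose, and Copg2 (-0.321) and Kcnq1ot1 (-0.369) fell. Clones of 1 gene differed here too. Of 4 clones of Kcnq1ot1, the antisense RNA of the cluster that holds Cdkn1c, 1 fell by 0.369 (adjusted p = 0.00956, limma), 1 rose by 0.148 (0.0312) and 2 did not pass. Peg3 had a clone at -0.251 (adjusted p = 0.0136), a clone at 0.318 (0.00777) and a clone that did not pass. Igf2, the neighbour of H19, had clones at 0.125 (adjusted p = 0.0816) and -0.086 (0.125), neither of which passed. By 33-44 d none of the 25 passed, with Igf2 (0.169, adjusted p = 0.186) and Copg2 (-0.221, 0.186) nearest. A further clone of each gene went the other way over this step without passing, Igf2 at -0.13 (adjusted p = 0.188, limma) and Copg2 at 0.0713 (0.578). That clone of Copg2 did not pass by 169-194 d either (0.135, adjusted p = 0.118).

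In the insulin-like growth factor axis, 6 of 19 measured genes rose and 3 fell by 169-194 d, with a median difference of 0.133, against 22.8% and 16.9% of all named genes. Grb2 (0.413) and Shc1 (0.43), adaptors below the receptor, Irs1 (0.296), its main docking protein, and Igf2bp1 (0.395), which binds Igf2 mRNA, rose. Igf1 itself fell (-0.328, adjusted p = 0.00587, limma), as did Pik3ca (-0.221) and Foxo3 (-0.284). The Igf1 value comes from clone 15018, the spot next to H19 clone 15040. Among cell cycle genes and inhibitors of cyclin-dependent kinases, 5 of 30 rose and 6 fell, against the same shares of all named genes. Ccna2 (-0.196), Cdk6 (-0.375), Bub1 (-0.236) and Rb1 (-0.326) had the smallest p among those that fell, and Mcm6 (0.256), E2f4 (0.23), Rbl1 (0.149) and Top2a (0.184) rose. Neither list had a call between 17-21 d and 33-44 d, where Igf1 (-0.258, adjusted p = 0.184), Irs1 (0.253, 0.184), Ccna2 (-0.171, 0.184) and Rb1 (-0.31, 0.184) were nearest.

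Matrix and calcium genes were counted beside H19 and Nnat. Of 33 extracellular matrix genes, 7 rose and 3 fell by 169-194 d, with a median difference of 0.091, against 22.8% and 16.9% of all named genes. Each gene is counted by 1 clone, which for Col1a2 was 9008, so that the falling clone 15060 is not in these counts. Col2a1 (-0.836, adjusted p = 6.34e-09), Col6a1 (-0.332) and Lamb1 (-0.266) fell, and Bmp1 (0.408) and P4ha2 (0.285) had the smallest p among those that rose. Col2a1 was also called at 33-44 d (-0.496 ± 0.0922, adjusted p = 0.022, limma), the 1 call of these lists when each gene is counted by its chosen clone; clone 15060 of Col1a2 was called there too (-0.557, adjusted p = 0.00784). Of 6 calcium pump and store genes, Casq1 (-0.297), Itpr2 (-0.511) and Jph1 (-0.338) fell and Atp2a2, the slow-fibre calcium pump, rose (0.226), which is set against the same 16.9% and 22.8%. At 33-44 d none of the 6 passed.

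Markers of other tissues were set beside these results. Of 16 skeletal muscle markers 3 were measured, at a median percentile of 89.1, and 2 of them, Mylpf (-0.416) and Casq1 (-0.297), fell by 169-194 d. Over all named genes 16.9% fell and 22.8% rose, the background of the marker counts that follow as well. The 2 measured cartilage and bone markers of 11 listed, Col2a1 and Alpl, together averaged 0.11 to 0.48 at 17-21 d, -0.105 to 0.175 at 33-44 d and -0.26 to -0.03 at 169-194 d. Alpl did not pass (0.00423, adjusted p = 0.963, limma). Their mean thus moved with H19 clones 15040 and 15084 through Col2a1, and its part in that result was not tested. From 17-21 d to 169-194 d the means of skeletal muscle (1.33 to 1.03), endothelial (-0.235 to -0.462) and immune markers (0.299 to 0.106) also went down. Those of developing muscle (-0.476 to -0.58) and fibroblasts (0.474 to 0.467) did so too. Nerve (-1.43 to -1.27) and erythroid (-0.488 to -0.457) means went up. These changes of means were not tested. Of 13 markers of developing or regenerating muscle only Nes was measured, and it did not pass (-0.113, adjusted p = 0.217). No fibroblast (5 measured), endothelial (3), immune (2), nerve (1) or erythroid (3) marker was called by its chosen clone, and no adipocyte marker was measured. The fibroblast marker Col1a2 was read there from clone 9008, and its clone 15060, which was not chosen, fell by 0.906 (adjusted p = 1.03e-09, limma) together with the H19 clones; the part of this in their result was not tested.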

How the data were processed

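The authors deposited a score per clone and array, a z-score with a mean of 0 and an SD of 1 over the 8448 clones of each of 80 arrays (40 mice on 2 filters, from the values). Image analysis, background handling and log base are unknown here. Clones were named from the platform tables: 9663 had 1 symbol, 436 several and 6797 none. limma 3.58.1 (R 4.3.3) was run per filter on age class and sex over 40 separate mice, two-sided; p-values of all 16896 clones were adjusted together (Benjamini-Hochberg) and called under 0.05. The sex difference of the age change came from cell means of age by sex. Correlations used 100000 permutations. The number of arrays limits the precision. All clones of the 4 genes are described; other genes were named by smallest p within lists (at most 4 a direction), by likeness (the 3 highest r), or as neighbours. A gene in a list is its clone of highest mean percentile. The genes, lists and tests were chosen with earlier results of these data known, and neighbour subtraction was added after the data were seen. The fits were tested on simulated data, where 85% of changes of 0.5 array SD and 16% of changes of 0.2 were called for 169-194 d against 17-21 d. Alternatives covered scaling, a filter on dim clones, weights, priors, fewer classes, age-by-sex groups, list-number blocks, covariates and leaving out each mouse.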

Additional observations from a re-analysis of the deposited data

Results flagged for a closer look

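In 3 of 50 sets of mice (a clone in an age class) 1 mouse stood apart from the others by Dixon's criterion, which chance alone gives in about 1 of 20 groups. H19 clone 8789 was 1.58 in a male of 704-743 d (replicate 1), and the next lowest mouse of that class was at 1.88. H19 clone 10264 was 0.46 in a female of 704-743 d (replicate 10), and the next highest was at 0.20. Cdkn1c was 1.11 in a male of 476-499 d (replicate 9), and the next highest was at 0.63. The cause was not tested in any of them, and none of these mice enters the comparison of 169-194 d with 17-21 d except through the shared estimate of spread.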

How the results depend on the processing

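Between 17-21 d and 33-44 d, 2 of the 10 clones were called, and this count depended on the settings. It was 1 with median and MAD scaling, with 10 groups of age by sex or with a block of list numbers. It was 0 with only the classes compared, with a covariate for the other filter's leading component or Col1a2 clone 15060, or with same-column neighbours subtracted. Leaving out 1 mouse gave 0 to 2. Between 17-21 d and 169-194 d the count of 6 fell to 2 with the leading component, and stayed between 4 and 6 without any 1 mouse. The test of any difference among the classes called 3 clones, 6 with array weights, 5 with the block of list numbers or with neighbours subtracted, 0 with Col1a2 clone 15060 as a covariate, and 2 to 5 without 1 mouse; it reached 5 without 33-44 d replicate 4 or 476-499 d replicate 9. The 6 other counts, of 4 comparisons of ages from 33-44 d on, the sexes and their interaction with age, were 0 in each setting run for them.

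For 169-194 d against 17-21 d, H19 clones 15040 (-0.47 to -0.19) and 15084 (-0.417 to -0.214) stayed called and lower under all 13 other settings and without any 1 mouse. Directions turned for H19 clone 134 with quantile normalization (0.00244) and MAD scaling (0.024), for clone 8789 with neighbours subtracted (-0.0745), for clone 11847 with the leading component (-0.0502), with neighbours subtracted (-0.0357) and without 1 mouse (-0.0558 to 0.0865), for clone 12397 with the leading component (-3.11e-05) and with neighbours subtracted (-0.143), and for Nnat with the leading component (-0.00116). Clones that had not passed were called as higher: 8789 with MAD scaling (0.231), array weights (0.102) and a permutation test of that clone (0.101), and 12397 with Col1a2 clone 15060 as a covariate (0.318). Clone 134 (-0.249) and, with its direction turned, clone 12397 were called lower with neighbours subtracted. Plagl1 was not called with Col1a2 clone 15060 as a covariate (-0.207, adjusted p = 0.445). The cause was not tested.

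The median r over the 21 pairs of H19 clones was 0.0422 over 40 mice, -0.00677 on residuals, 0.00645 without the 2 farthest mice, 0.127, 0.134, 0.23, -0.0648 and 0.0405 within the 5 list blocks, and 0.0643 over the mice of 33-44 d and older, an alternative chosen after seeing the data, as was neighbour subtraction. Signal over background could not be read from the scores, and the filter on dim clones left out the lowest 25% of each filter by mean score instead. No paired analysis was possible because the labels number mice once each and pair none.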
